A study of Mus musculus with 16 samples.

Results

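The 33 genes described here encode the mouse glutamate receptors and the auxiliary subunits that travel with them. They comprise 4 AMPA receptor subunits (Gria1, Gria2, Gria3 and Gria4), 6 NMDA receptor subunits (Grin1, Grin2a, Grin2b, Grin2c, Grin2d and Grin3a), 5 kainate receptor subunits (Grik1, Grik2, Grik3, Grik4 and Grik5) and the delta receptor Grid1. The metabotropic receptors are Grm5 of group I, Grm2 and Grm3 of group II, and Grm4, Grm7 and Grm8 of group III. The auxiliary subunits are 6 transmembrane AMPA receptor regulatory proteins, or TARPs (Cacng2, Cacng3, Cacng4, Cacng5, Cacng7 and Cacng8), the cornichons Cnih2 and Cnih3, Neto1, Neto2 and Shisa9. They were taken by symbol from the 55385 Ensembl gene identifiers of the deposited count tables. All 33 were matched, and all 33 passed the filter on low counts, which left 16899 genes to test.

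The libraries were 16 bulk RNA-seq libraries of mouse dorsal hippocampus. Mice had received a recombinant adeno-associated virus (rAAV) into the dorsal hippocampus that carried either exogenous Dnmt3a2 or GFP, and the GFP group is called Control. Contextual fear conditioning, a task that pairs a place with a shock, followed 3 weeks later, and the tissue was taken 1 or 5 days after training. This gave 4 groups of 4 libraries each: Dnmt3a2 at 1 day, Control at 1 day, Dnmt3a2 at 5 days and Control at 5 days. Virus injection and training were common to all 4 groups. Dnmt3a2 is the shorter isoform of the DNA methyltransferase Dnmt3a, which places new methyl groups on cytosines of CpG dinucleotides. The promoter and cell type of the transgene and the strain, sex and age of the mice are not stated in the labels or protocols. These also do not state whether each library came from 1 animal or from a pool, so the p-values below measure the spread between libraries, which may be partly technical.

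Glutamate is the main excitatory transmitter of the hippocampus. AMPA receptors carry most of the fast synaptic current, NMDA receptors admit calcium when release and depolarisation coincide, and kainate receptors tune release and excitability. Metabotropic glutamate receptors act through G proteins: group I receptors are mostly postsynaptic and excitatory, and group II and III receptors mostly dampen release. TARPs and cornichons bind AMPA receptors, help them reach the surface and shape their gating, and Neto proteins do so for kainate receptors and, in the case of Neto1, associate with NMDA receptors. The number and makeup of these receptors at the synapse are known to change with synaptic plasticity and memory.

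Totals per library ran from 28.6 to 30.0 M estimated counts. Transcripts of the delivered gene were abundant: Dnmt3a stood at 964 ± 238 CPM (counts normalised to library size) in the Dnmt3a2 libraries and 34.8 ± 0.797 CPM in the Control libraries at 1 day, and at 1161 ± 110 CPM with Dnmt3a2 and 35.1 ± 2.15 CPM in Control at 5 days (SD, n = 4 each). Markers of CA1, CA3 and CA2, dentate granule, interneuron and glial cells were all detected, and no gene of any marker list was at 0 in a whole group. Replicate 1 of Dnmt3a2 at 1 day and replicate 1 of Dnmt3a2 at 5 days stood apart in choroid plexus transcripts, with 1175 and 1826 CPM summed over 10 markers, against 128 to 368 CPM in the other 14 libraries. Those libraries and replicate 1 of Control at 1 day also had the highest interferon response sums over 10 genes, at 105, 142 and 91.4 CPM, against 46.0 to 66.3 CPM elsewhere. Counts of changed genes below are therefore also given without them.

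Among the ionotropic subunits, transcripts of the AMPA subunit Gria1 and of the obligatory NMDA subunit Grin1 were the most abundant. Levels between genes were compared per length, as CPM per kilobase (kb) of mean coding transcript, and are means ± SD over all 16 libraries. Gria1 stood at 211 ± 9.32 CPM per kb, followed by Gria2, the subunit that makes AMPA receptors impermeable to calcium, at 70.2 ± 5.53, Gria3 at 45.5 ± 3.196 and Gria4 at 6.39 ± 0.659 CPM per kb. The library ranges of these 4 did not overlap. In the NMDA class Grin1 stood at 190.5 ± 7.11 CPM per kb. The glutamate-binding subunits Grin2a and Grin2b stood at 36.4 ± 4.098 and 33.05 ± 3.34 CPM per kb, and their ranges, 30.7 to 47.1 and 27.05 to 41.2, overlapped. Grin2c had 10.8, Grin2d 4.996 and the modulatory subunit Grin3a 3.64 CPM per kb.

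Kainate receptor transcripts were led by Grik5, a high-affinity subunit that needs a partner to form a channel, at 106 ± 5.09 CPM per kb. Grik4 (12.3), Grik2 (10.5), Grik3 (4.85) and Grik1 (2.203 CPM per kb) followed, and the ranges of Grik4 and Grik2 overlapped. The delta receptor Grid1, an organiser of synaptic contacts, had 15.97 ± 0.914 CPM per kb. Of the metabotropic receptors, Grm5 was highest at 35.3 ± 4.42 CPM per kb, ahead of Grm2 at 28.7 ± 3.43, Grm3 at 14.05, Grm7 at 11.2 ± 1.103 and Grm4 at 4.96; the ranges of Grm5 and Grm2, and those of Grm3 and Grm7, overlapped. Grm8 was the lowest of all 33 genes, at 0.976 CPM per kb.

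The auxiliary subunits held the highest value of all, since Cnih2, a cornichon that slows the closing of AMPA receptors, stood at 734 ± 70.97 CPM per kb. Cnih3 had 47.3 CPM per kb. Among TARPs, Cacng8, the type I TARP that is characteristic of the hippocampus, stood at 119.7 ± 8.59 CPM per kb and the type II TARP Cacng7 at 111 ± 12.5 CPM per kb, with overlapping ranges. Their order turned round when the longest transcript was used as the length, with 103 CPM per kb for Cacng8 and 111 for Cacng7. Cacng3 (40.3), Cacng2 (19.8), Cacng4 (13.04) and Cacng5 (6.56 CPM per kb) were lower. Neto1 and Shisa9 had 16.4 ± 2.11 and 16.8 ± 1.23 CPM per kb, and Neto2 had 10.9. With the longest transcript as the length Grik3, at 4.85 CPM per kb, also came ahead of Grik2, at 4.52; the longest transcript of Grik2 has 9.43 kb and the mean over its transcripts is 4.07 kb. Kdelr1 (83.3 CPM) and Gm45441 (8.37 CPM) overlap Grin2d, Yif1a (9.88 CPM) overlaps Cnih2 and Gm20387 (1.65 CPM) overlaps Grm7, and since the treatment of strand in counting is not stated, reads in the overlaps may not be told apart.

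**Figure D1:**
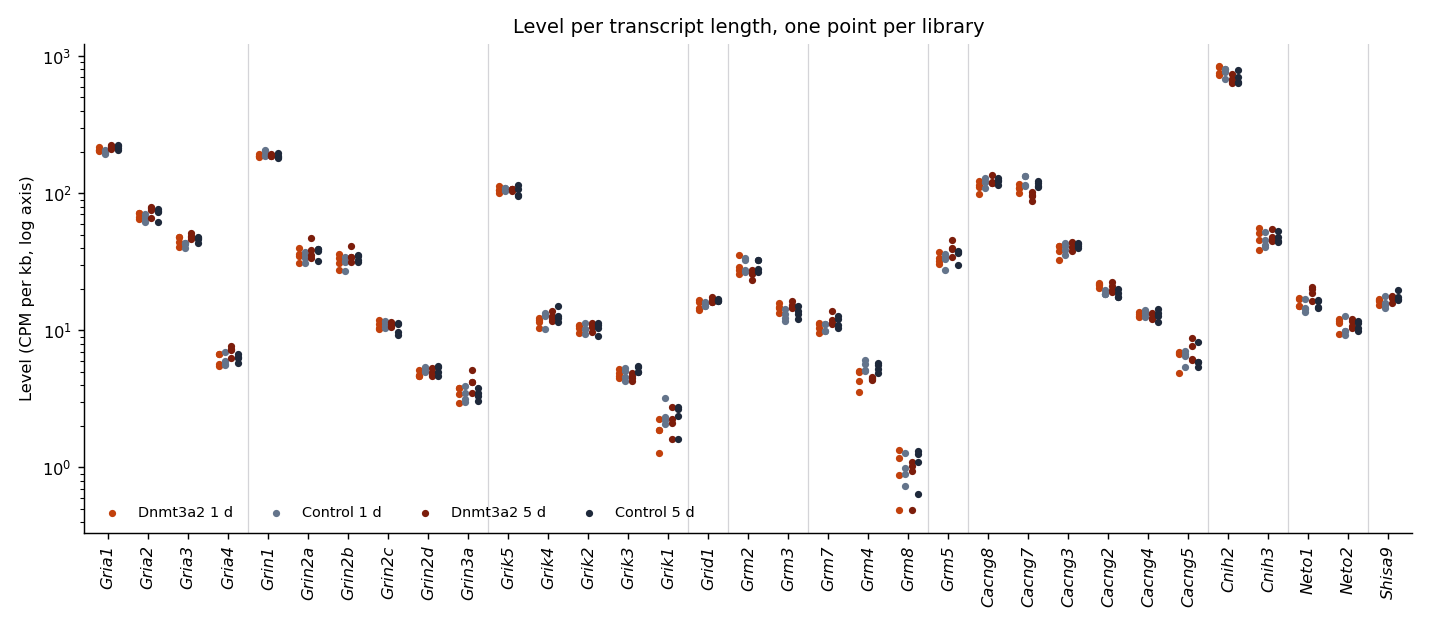
Level of each of the 33 genes per kilobase of mean coding transcript (CPM per kb, log axis), with 1 point for each of the 16 libraries, coloured by group and ordered within class. Cnih2 lies highest, around 734 CPM per kb, and Grm8 lowest, around 0.976, with far smaller distances between the 4 groups of a gene than between these genes.

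The main question was whether Dnmt3a2 altered these transcripts. Averaged over both days, 3 of the 33 genes changed: the TARP Cacng7 and the presynaptic metabotropic receptor Grm4 fell, and the TARP Cacng2 rose. The changes were modest, as Cacng7 fell by 14.6%, Grm4 fell by 17.6% and Cacng2 rose by 12.4%. The core subunits of AMPA and NMDA receptors were not among the changed genes. The test was edgeR's quasi-likelihood test with a Benjamini-Hochberg adjustment over all 16899 genes and a threshold of 0.05 on the adjusted p. Across all genes it called 1.43%, with 0.704% higher and 0.722% lower, so 1 of 33 members rose against 0.704% of all genes and 2 of 33 fell against 0.722%. At an unadjusted p under 0.05 there were 6 members, or 18.2% beside 12.1% of all genes; DESeq2's Wald test called 5 members (those 3, Grm3 and Neto1), or 5 of 33 beside 3.09% of all genes it tested, and limma-voom 3, beside 1.4%. In bulk tissue, a fall in the number of cells of a type and a fall in RNA per cell cannot be told apart.

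Cacng7 (ENSMUSG00000069806) lies on chromosome 7 from 3332955 to 3368221, plus strand, in build GRCm38.p6, 22461 bases before its neighbour and fellow TARP Cacng8. Cacng2 (ENSMUSG00000019146), known as stargazin, lies on chromosome 15 from 77991748 to 78120028, minus strand. It carries AMPA receptors to the surface and anchors them at the synapse through PSD-95. The promoter windows of both are shown because they are the called genes with an entry in the RefSeq-derived promoter table, and because CpG is the dinucleotide that Dnmt3a2 acts on; methylation was not measured in these libraries. Each window runs from 250 bases before to 50 bases after a transcription start, 5′ to 3′ on the gene's strand, as given by RefSeq for GRCm38.p6, with every CG in capitals. The windows are chr7:3332575-3332874 on the plus strand for Cacng7 and chr15:78119231-78119530 on the minus strand for Cacng2. RefSeq's starts differ from the gene ends given above, which are GENCODE's: the start of the Cacng7 window lies 130 bases before the GENCODE gene, so the window is wholly outside it, and that of the Cacng2 window lies 748 bases inside the gene.
Cacng7: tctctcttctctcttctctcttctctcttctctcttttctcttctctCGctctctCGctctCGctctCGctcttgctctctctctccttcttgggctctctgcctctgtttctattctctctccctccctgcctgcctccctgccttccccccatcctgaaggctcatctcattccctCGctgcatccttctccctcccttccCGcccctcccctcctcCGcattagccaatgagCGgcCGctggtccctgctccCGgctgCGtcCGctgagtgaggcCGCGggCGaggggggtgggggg
Cacng2: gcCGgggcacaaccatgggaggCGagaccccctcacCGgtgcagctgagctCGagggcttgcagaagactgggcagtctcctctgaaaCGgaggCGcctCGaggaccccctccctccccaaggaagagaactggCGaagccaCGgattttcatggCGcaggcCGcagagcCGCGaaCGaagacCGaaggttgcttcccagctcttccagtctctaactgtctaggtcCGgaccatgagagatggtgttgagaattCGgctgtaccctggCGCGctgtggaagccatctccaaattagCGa
The motif searched was CG, which reads the same on both strands. The Cacng7 window held 15 CG dinucleotides and the Cacng2 window 20, where 94.6% of the 32851 windows in the table held at least 1 and the median was 7. Of the 33 members 21 had an entry, with 26 windows between them, a median of 17 CG dinucleotides and a range of 0 to 50. By this count 65.4% of all windows held fewer than the window of Cacng7 and 73.5% fewer than that of Cacng2. Grm4 had no entry.

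Cacng7 had 239.8, 224, 240.5 and 257 CPM in the Dnmt3a2 libraries at 1 day, against 253, 294, 293 and 248 CPM in the Control libraries. At 5 days it had 228, 194, 215 and 211 CPM with Dnmt3a2, against 249, 246, 262 and 271 CPM in Control. All 4 Dnmt3a2 libraries at 5 days lay below all 4 Control libraries, and at 1 day 3 of the 4 Dnmt3a2 libraries did. Over both days Cacng7 averaged 226 ± 19.96 CPM with Dnmt3a2 and 264 ± 19.7 CPM in Control (SD, n = 8 each), a log2 change of -0.23 (SE 0.0453, adjusted p = 0.012). It was called under all 28 other ways of fitting that were tried, with adjusted p from 0.000325 to 0.0393.

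Cacng2 moved the other way. It had 119, 117, 113 and 122 CPM in the Dnmt3a2 libraries at 1 day, against 108, 102, 102 and 101 CPM in the Control libraries. At 5 days it had 108, 104, 123 and 115 CPM with Dnmt3a2, against 97.2, 95.9, 111 and 102 CPM in Control. Here the 4 Dnmt3a2 libraries at 1 day lay above all 4 Control libraries, and at 5 days the groups overlapped. The averages over both days were 115 ± 6.65 CPM with Dnmt3a2 and 102 ± 4.96 CPM in Control (SD, n = 8 each), a log2 change of 0.17 (SE 0.0403, adjusted p = 0.0388). This call was close to the threshold: it held under 15 of 28 other fits, with adjusted p from 0.00469 to 0.0977, and was lost without any of replicates 1, 2 and 4 of Dnmt3a2 at 1 day, 3 and 4 of Dnmt3a2 at 5 days, 2, 3 and 4 of Control at 1 day, or 1, 2 and 4 of Control at 5 days (adjusted p 0.0585 to 0.0977). An antisense gene, A730060N03Rik, overlaps Cacng2 with a mean of 1.87 CPM, and how strand was treated in counting is not stated.

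Grm4 (ENSMUSG00000063239, chromosome 17, 27422387 to 27521403, minus strand) encodes the group III receptor mGlu4, which dampens transmitter release. It stood at 12.6, 15.1, 17.8 and 18.02 CPM in the Dnmt3a2 libraries at 1 day, against 18.2, 20.2, 21.7 and 18.01 CPM in the Control libraries. At 5 days it stood at 15.5, 16.03, 16.3 and 15.8 CPM with Dnmt3a2, against 20.5, 18.4, 17.4 and 19.9 CPM in Control. The groups did not overlap at 5 days, with every Dnmt3a2 library lower, and at 1 day they met, with replicate 4 of Dnmt3a2 just above the lowest Control library. Grm4 averaged 15.9 ± 1.68 CPM with Dnmt3a2 and 19.3 ± 1.503 CPM in Control (SD, n = 8 each), a log2 change of -0.28 (SE 0.0671, adjusted p = 0.0408). Like Cacng2, it kept its call under 15 of 28 other fits (adjusted p 0.00722 to 0.0966). The call was lost without any of replicates 1 and 2 of Dnmt3a2 at 1 day, all 4 of Dnmt3a2 at 5 days, 2 and 3 of Control at 1 day, or 1, 2 and 4 of Control at 5 days (adjusted p 0.0554 to 0.0966).

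Neto1, Grm3 and Grin3a were higher on average with Dnmt3a2 but did not pass the threshold. Neto1 had 125, 145, 142 and 125 CPM in the Dnmt3a2 libraries at 1 day, against 142, 121, 119.7 and 114 CPM in the Control libraries. At 5 days it had 137, 174, 168 and 156 CPM with Dnmt3a2, against 136, 139, 122 and 123 CPM in Control. The highest mean was that of Dnmt3a2 at 5 days, where replicate 1 lay within the Control range and the other 3 above it. Averaged over days, the log2 difference of Neto1 was 0.20 (SE 0.0569, 95% interval 0.08 to 0.32, adjusted p = 0.0923). It passed under 7 of 28 other fits, among them those without replicate 1 of Dnmt3a2 at 5 days (adjusted p = 0.0288) or replicate 1 of Control at 1 day (0.0296), the fit without the 2 choroid-rich libraries (log2 0.25, adjusted p = 0.0183), that without the 3 interferon-rich libraries (log2 0.29, adjusted p = 0.00279) and the one with offsets for GC content and length (log2 0.14, adjusted p = 0.0342).

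Grm3 encodes a group II receptor found on neurons and astrocytes. It had 44.9, 40.9, 48.3 and 44.3 CPM in the Dnmt3a2 libraries at 1 day, against 39.96, 43.5, 37.5 and 35.9 CPM in the Control libraries. At 5 days it had 45.3, 49.6, 44.3 and 46.8 CPM with Dnmt3a2, against 36.6, 45.6, 39.96 and 41.97 CPM in Control. The groups overlapped at both days. The averaged log2 difference was 0.18 (SE 0.052, 95% interval 0.07 to 0.29, adjusted p = 0.0928). Grin3a, whose subunit lowers the calcium permeability of NMDA receptors, had 21.95, 28.3, 28.3 and 25.4 CPM in the Dnmt3a2 libraries at 1 day, against 25.99, 22.4, 29.4 and 23.5 CPM in the Control libraries. At 5 days it had 26.1, 38.5, 31.2 and 31.1 CPM with Dnmt3a2, against 26.2, 28.3, 22.8 and 24.95 CPM in Control. Replicate 2 of Dnmt3a2 at 5 days was the highest of all 16, and the groups overlapped at both days. Its averaged log2 difference was 0.17 (SE 0.0793, adjusted p = 0.382).

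**Figure D2:**
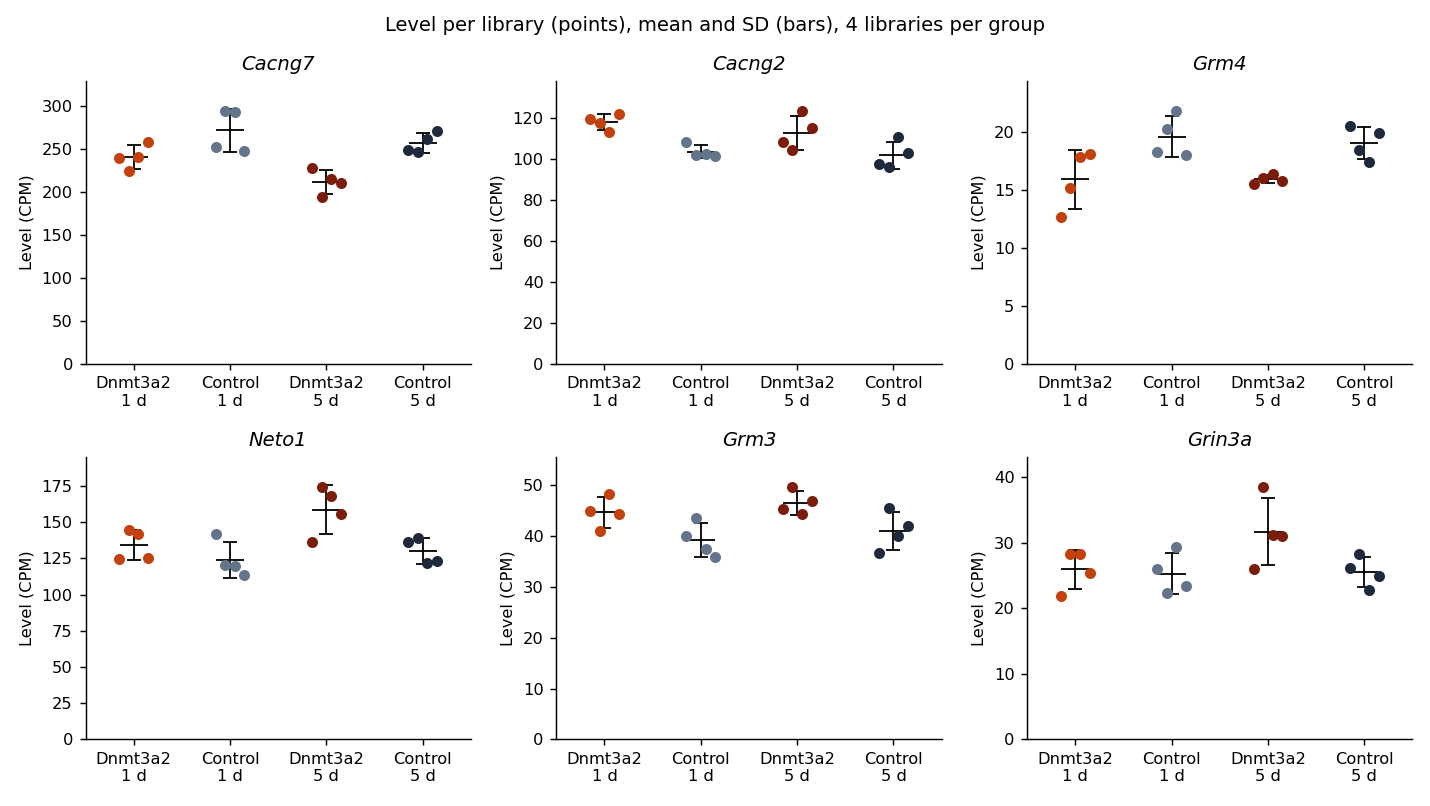
Level in CPM (vertical axes, starting at 0) of Cacng7, Cacng2, Grm4, Neto1, Grm3 and Grin3a in each library (points) by group, with the mean and SD of 4 libraries (bars). At 5 days all Dnmt3a2 points lie below all Control points for Cacng7 and Grm4, and at 1 day all Dnmt3a2 points lie above all Control points for Cacng2.

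The other 27 genes had averaged log2 differences between -0.27 for Grik1 and 0.11 for Grm5, and none passed. All 4 AMPA subunits lay slightly above 0, with 0.04 for Gria1 (95% interval -0.02 to 0.10), 0.07 for Gria2 (-0.03 to 0.16), 0.08 for Gria3 (0.00 to 0.17) and 0.10 for Gria4 (-0.02 to 0.23). For Grin1 the interval was -0.09 to 0.04, for Grin2a -0.10 to 0.20 and for Grin2b -0.08 to 0.19 on the log2 scale. The hippocampal TARP Cacng8 had -0.04 (-0.14 to 0.05) and Cnih2 0.00 (-0.11 to 0.11). The median over the 33 members was 0.02 on the log2 scale, beside 0.01 over all 16899 genes, and 19 of 33 members lay above 0, beside 52.6% of all genes.

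By mean transcript length, the most abundant member of each class did not pass in any comparison. Gria1 had 1122, 1172, 1131 and 1109 CPM with Dnmt3a2, against 1133, 1113, 1069.8 and 1049 CPM in Control, at 1 day, and 1139, 1224, 1191 and 1201 CPM with Dnmt3a2, against 1163, 1194, 1119 and 1214 CPM in Control, at 5 days. Grin1 had 777, 759, 755 and 744 CPM with Dnmt3a2, against 765, 839, 819 and 749.9 CPM in Control, at 1 day, and 773, 756, 754 and 769.96 CPM with Dnmt3a2, against 754, 732, 798 and 742 CPM in Control, at 5 days. The groups of both genes overlapped at each day. Grik5 had 400.1, 399, 379 and 427 CPM with Dnmt3a2, against 393, 401, 410.1 and 409 CPM in Control, at 1 day, and 405, 401, 389.5 and 402 CPM with Dnmt3a2, against 358, 366, 433 and 403 CPM in Control, at 5 days. Grid1 had 82.9, 94.7, 91.6 and 80.5 CPM with Dnmt3a2, against 86.2, 90.5, 92.2 and 85.4 CPM in Control, at 1 day, and 92.1, 101, 92.1 and 94.6 CPM with Dnmt3a2, against 94.98, 93.8, 93.02 and 96.7 CPM in Control, at 5 days. These groups overlapped as well, and the lowest Grik5 values were replicates 1 and 2 of Control at 5 days.

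For Grm5, the postsynaptic group I receptor that couples to calcium release, the values were 173, 201, 181 and 164 CPM with Dnmt3a2, against 193, 176, 182 and 147 CPM in Control, at 1 day, and 185, 245, 214 and 209.9 CPM with Dnmt3a2, against 195, 203, 160.3 and 198 CPM in Control, at 5 days. Replicate 2 of Dnmt3a2 was the highest at 5 days, and its groups overlapped at both days. Grm2 had 98.2, 94.03, 87.3 and 119.9 CPM with Dnmt3a2, against 90.96, 111, 114 and 93.9 CPM in Control, at 1 day, and 93.9, 88.8, 79.3 and 88.2 CPM with Dnmt3a2, against 111, 90.1, 111 and 96.3 CPM in Control, at 5 days. At 5 days 3 of the 4 Dnmt3a2 libraries lay below all Control libraries. Grm7, a presynaptic group III receptor, had 37.99, 40.8, 41.6 and 35.2 CPM with Dnmt3a2, against 40.5, 41.02, 36.2 and 36.4 CPM in Control, at 1 day, and 40.6, 51.01, 41.5 and 43.6 CPM with Dnmt3a2, against 43.9, 46.7, 39.9 and 38.2 CPM in Control, at 5 days. Cacng8 had 189, 202, 183 and 163 CPM with Dnmt3a2, against 196, 213, 198 and 179.999 CPM in Control, at 1 day, and 196, 221, 196 and 198 CPM with Dnmt3a2, against 187, 199.5, 213 and 205 CPM in Control, at 5 days. Shisa9 stood at 65.99, 64.8, 59.7 and 63.9 CPM with Dnmt3a2 at 1 day and at 67.3, 69.1, 66.8 and 61.8 CPM with Dnmt3a2 at 5 days, beside the Control values given with the day comparison. For Grm7, Cacng8 and Shisa9 the groups overlapped at both days.

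Several cell markers and the choroid-rich libraries moved with these comparisons. Averaged over days, where 1.43% of all genes passed, 2 of 10 dentate granule markers fell (C1ql2, log2 -0.49, adjusted p = 0.000117, and Dsp, -0.24, 0.0315). Of 12 CA3 and CA2 markers 1 rose (Cpne9, 0.33, 0.00485), and of 8 CA1 markers Spink8 rose (0.35, 0.0192) and Pou3f1 fell (-0.19, 0.0397). The dentate list as a whole was mixed, with 4 markers above 0 and 6 below and a median of -0.025. The CA3 and CA2 list had 9 above and 3 below, and the CA1 list 5 above and 3 below. At 5 days the summed dentate markers ran from 809 to 838 CPM with Dnmt3a2 and from 874 to 1006 CPM in Control, and the summed CA3 and CA2 markers from 771 to 859 CPM with Dnmt3a2 and from 691 to 845 CPM in Control. The dentate sums averaged 825 CPM with Dnmt3a2 and 937 CPM in Control, of which C1ql2 alone made up 128 and 194 CPM. At 1 day both sums overlapped between the groups. The dentate sums then ran from 802 to 962 CPM with Dnmt3a2 and from 809 to 1010 CPM in Control. The CA3 and CA2 sums of that day ran from 678 to 835 CPM with Dnmt3a2 and from 664 to 787 CPM in Control. Summed astrocyte markers at 1 day ran from 4042 to 4446 CPM with Dnmt3a2 and from 3843 to 4075 CPM in Control. At 5 days they ran from 3693 to 4009 CPM with Dnmt3a2, within the Control range of 3590 to 4057 CPM. In the average 7 of the 10 astrocyte markers lay above 0 and 3 below, and Slc1a3 was the only 1 that passed, as a rise. Of 8 neocortex markers Scnn1a fell (-0.28, adjusted p = 0.015), and the list was mixed, with 3 markers above 0 and 5 below. No marker of interneurons (12), oligodendrocytes (9), their precursors (6), microglia (9), endothelial and mural cells (8), choroid plexus (10) or the interferon response (10) passed. All 10 choroid plexus and all 10 interferon response genes nevertheless had a higher fitted level with Dnmt3a2, with median log2 differences of 1.82 and 0.52. The choroid plexus difference rested on the choroid-rich libraries: without them 2 of 9 tested genes lay above 0, with a median of -0.34. Of the 10 interferon response genes, 4 lay above 0 without these 2 libraries, with a median of -0.05. Without all 3 interferon-rich libraries, 9 of these 10 lay above 0, with a median of 0.15. The part of the neuronal and glial markers in the receptor results was not tested. Without the 2 choroid-rich libraries, 1.5% of all genes and 2 members were called (Cacng7 and Neto1, with Cacng2 at adjusted p = 0.051 and Grm4 at 0.0759), and without the 3 interferon-rich libraries 1.53% of all genes and 3 members were (Cacng2, Cacng7 and Neto1, with Grm4 at 0.0623).

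At 1 day alone none of the 33 genes passed, where the test called 0.0888% of all genes; DESeq2 (0.445% of all genes) and limma-voom (0.0888%) also called none of them. At an unadjusted p under 0.05 there were 5 members, or 15.2% beside 7.17% of all genes. They were Cacng2 (log2 0.19, adjusted p = 0.373), Grm4 (-0.30, 0.399), Cacng7 (-0.18, 0.473), Grm3 (0.18, 0.565) and Grik1 (-0.44, 0.682). Grik1, a kainate subunit typical of interneurons, had 4.09, 6.04, 7.23 and 5.997 CPM with Dnmt3a2 at 1 day, against 7.45, 6.71, 10.3 and 7.11 CPM in Control, and 5.15, 8.92, 6.81 and 7.26 CPM with Dnmt3a2 at 5 days, against 8.55, 8.86, 5.14 and 7.66 CPM in Control. The groups overlapped at both days, and its lowest library was the choroid-rich replicate 1. The libraries of both groups were separate for 1 member, Cacng2, higher with Dnmt3a2, or 3.03% beside 1.67% of all genes in that direction.

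At 5 days again none passed, where 0.32% of all genes did; limma-voom called none of the 33, beside 0.343% of all genes, and DESeq2 called 1, Cacng7, beside 0.899%. Members with an unadjusted p under 0.05 numbered 9, or 27.3% beside 8.01% of all genes. Cacng7 came closest (log2 -0.28, SE 0.0641, adjusted p = 0.0651), followed by Neto1 (0.29, 0.188), Grin3a (0.31, 0.412), Grm4 (-0.26, 0.418) and Grik3 (-0.19, 0.421). Cacng7 passed without replicate 1 of Dnmt3a2 at 5 days (adjusted p = 0.0478). Without the 2 choroid-rich libraries Cacng7 and Neto1 both passed (0.0416 and 0.0365), beside 0.528% of all genes, as they did without the 3 interferon-rich libraries (0.0325 and 0.0118), beside 0.62% of all genes.

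Grik3, a kainate subunit of low glutamate affinity, had 40.2, 43.5, 38.3 and 41.96 CPM with Dnmt3a2 at 5 days, against 48.5, 44.7, 44.6 and 49.1 CPM in Control, and 40.5, 46.7, 41.4 and 44.1 CPM with Dnmt3a2 at 1 day, against 41.1, 45.6, 47.5 and 38.6 CPM in Control. Its groups were separate at 5 days and mixed at 1 day. Separate libraries at 5 days were seen for 3 members, Cacng7, Grm4 and Grik3, all lower with Dnmt3a2; this is 9.09% of members beside 3.29% of all genes in that direction. By class the 5-day differences ran from 0.02 to 0.18 in AMPA subunits, from -0.06 to 0.31 in NMDA subunits, from -0.19 to 0.03 in kainate subunits, from -0.27 to 0.18 in metabotropic receptors and from -0.28 to 0.18 in TARPs. Grm2, a group II autoreceptor, had 79.3 to 93.9 CPM with Dnmt3a2 and 90.1 to 111 CPM in Control (log2 -0.22, adjusted p = 0.587).

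**Figure D3:**
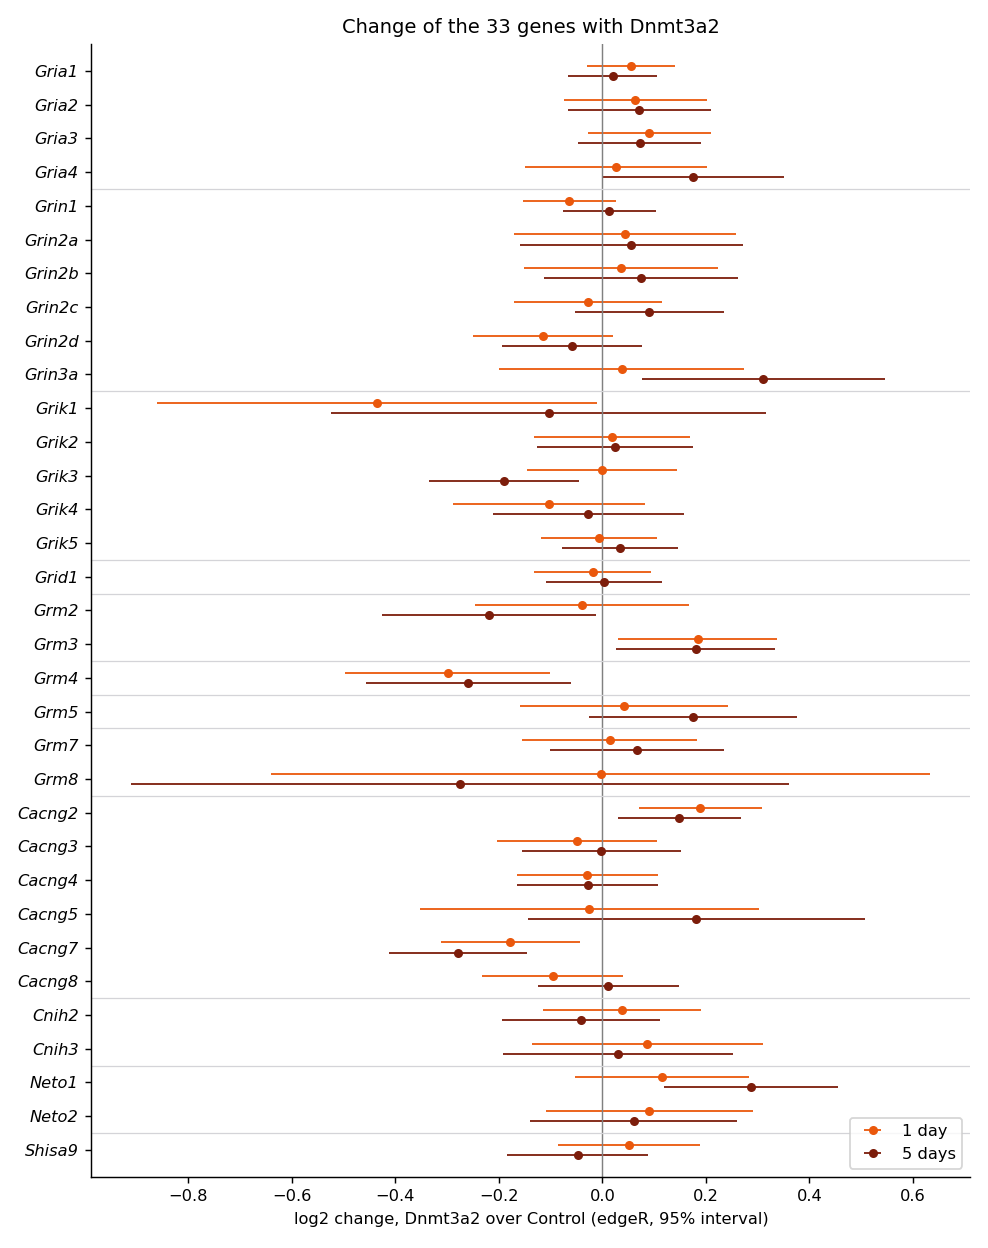
Log2 difference of each gene, Dnmt3a2 over Control, with its 95% interval at 1 day (orange) and 5 days (dark red), grouped by class. At both days Cacng7 and Grm4 lie below 0 and Cacng2 and Grm3 above 0 with intervals that leave out 0, while Grik1 and Grm8, the genes with the fewest counts, have the widest intervals.

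Ratios of counts within a library compare a pair of transcripts without any scaling between libraries. The TARP ratio Cacng8 to Cacng2 was 1.58, 1.72, 1.61 and 1.33 in the Dnmt3a2 libraries at 1 day, against 1.81, 2.09, 1.94 and 1.77 in Control. All 4 Dnmt3a2 values lay below all 4 Control values. The geometric means were 1.56 with Dnmt3a2 and 1.9004 in Control, a log2 difference of -0.29 (two-sided exact permutation p = 0.0286, the smallest that 70 regroupings of 4 against 4 allow; 0.171 after Benjamini-Hochberg adjustment over 6 ratio tests). The difference thus did not hold after adjustment. At 5 days the ratio was 1.81, 2.12, 1.59 and 1.72 with Dnmt3a2, against 1.93, 2.08, 1.93 and 1.999 in Control, with overlap (log2 difference -0.14, exact permutation p = 0.2, adjusted 0.6).

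The ratio Grin2a to Grin2b, whose rise marks the maturation of NMDA receptors, overlapped between the groups at both days. At 1 day its geometric mean was 0.781 with Dnmt3a2 and 0.778 in Control, and at 5 days 0.771 with Dnmt3a2 and 0.783 in Control (log2 differences 0.01 and -0.02, exact permutation p = 0.886 and 0.829). For Gria1 to Gria2 it was 2.28 with Dnmt3a2 and 2.295 in Control at 1 day and 2.22 with Dnmt3a2 and 2.299 in Control at 5 days (log2 differences -0.01 and -0.05, exact permutation p = 0.886 and 0.429). These differences were smaller than the SD of the log2 ratio among libraries of 1 group, which ran from 0.0342 to 0.135 for Grin2a to Grin2b and from 0.0734 to 0.095 for Gria1 to Gria2.

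**Figure D4:**
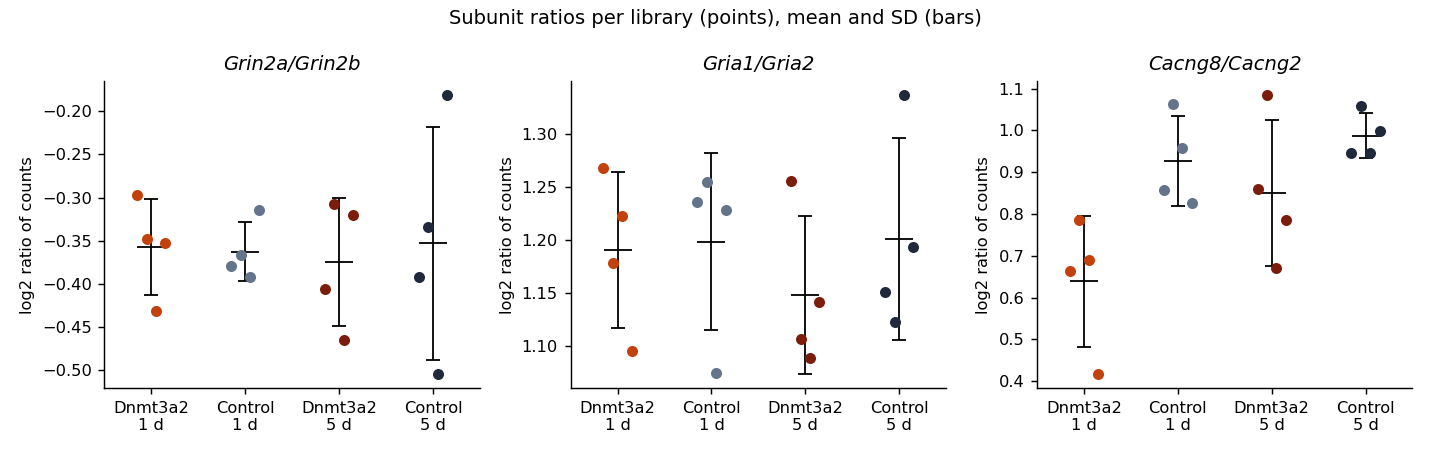
Log2 ratio of counts (vertical axes, which do not start at 0) for Grin2a to Grin2b, Gria1 to Gria2 and Cacng8 to Cacng2 in each library (points) by group, with the mean and SD of 4 libraries (bars). Only for Cacng8 to Cacng2 at 1 day do all Dnmt3a2 points, with a mean of 0.64, lie below all Control points, with a mean of 0.93.

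Between the days, none of the 33 genes passed in either virus group, and no gene at all did by edgeR or limma-voom (0% of 16899). DESeq2 called none of the members and, with Dnmt3a2, 0.315% of all genes (48 genes), and in Control 0%. With Dnmt3a2, 9 members had an unadjusted p under 0.05 for 5 days against 1 day, or 27.3% beside 10.8% of all genes. The smallest p-values belonged to Neto1 (log2 0.24, adjusted p = 0.327) and Cnih2 (-0.22, 0.329). Cnih2 had 1002, 851, 877 and 919 CPM at 5 days with Dnmt3a2, against 1134, 1006, 984 and 1112 CPM at 1 day, and 859.9, 875, 1072 and 947 CPM at 5 days in Control, against 922, 1089.6, 1081 and 1033 CPM at 1 day. The days overlapped in both virus groups.

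In Control, 3 members had an unadjusted p under 0.05, or 9.09% beside 3.54% of all genes, and all 3 were higher at 5 days, beside 1.62% of all genes in that direction. They included Gria1 (log2 0.10, adjusted p = 0.999) and Shisa9, an AMPA receptor auxiliary of dentate granule cells (0.16, 0.999). Gria1 had 1163, 1194, 1119 and 1214 CPM at 5 days, against 1133, 1113, 1069.8 and 1049 CPM at 1 day, and Shisa9 had 76.2, 67.6, 64.3 and 65.8 CPM at 5 days, against 58.9, 60.9, 69.1 and 56.6 CPM at 1 day. Both genes overlapped between the days. All 5-day libraries lay above all 1-day libraries for 1 member, Grid1, or 3.03% beside 1.13% of all genes in that direction. With Dnmt3a2, 25 of 33 members lay above 0 at 5 days against 1 day, beside 50.2% of all genes. In Control 21 of 33 members did, beside 8449 of 16899 genes.

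Whether the Dnmt3a2 difference itself changed from 1 day to 5 days was tested as the difference of both effects. None of the 33 genes passed, and none of all 16899 genes did by edgeR or limma-voom (0%). DESeq2 called none of the members and 1 gene in all (0.00592%). No member had an unadjusted p under 0.05, beside 2.13% of all genes. The smallest p-values were those of Grik3 (log2 -0.19, 95% interval -0.39 to 0.02) and Grin3a (0.27, -0.06 to 0.61), each with an adjusted p = 1. For Cacng7 the interval of this difference was -0.29 to 0.09, for Cacng2 -0.21 to 0.13 and for Grm4 -0.24 to 0.32 on the log2 scale.

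Grin1 and Gria1 were the steadiest members between libraries. The median coefficient of variation within groups was 7.47% over the members, from 3.07% for Grin1 to 30.4% for Grm8, beside 9.44% over all 16899 tested genes and 6.6% over the 9460 that averaged 10 CPM or more, a level that Grik1 and Grm8 did not reach. Replicate 2 of Dnmt3a2 at 5 days was the highest of all 16 libraries for 13 members, among them Gria1, Gria2, Gria3, Grin2a, Grin2b, Grin3a, Grm5 and Neto1, and the lowest for Cacng7 and Cnih2; it was the highest for 11% of all tested genes. Replicate 4 of Control at 1 day was the lowest for 8 members (9.14% of tested genes), and replicate 1 of Dnmt3a2 at 1 day for 7 (10.4%).

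Members of low GC content tended to be higher with Dnmt3a2, and also at 5 days against 1 day in both virus groups. Over the 33 genes, the averaged log2 difference had a Spearman correlation of -0.532 with GC content and 0.38 with transcript length, beside -0.124 and 0.181 over 16887 genes. For 5 days against 1 day, the members' correlation with GC content was -0.544 in Control and -0.425 with Dnmt3a2, beside -0.208 and -0.104. The points share the same libraries, and these values are a description only. GC-rich Cacng7 (58.1%) and Grm4 (59.9%) were lower with Dnmt3a2, and Neto1 (39.6%) and Grm3 (47.6%) were higher, while Cacng8, the most GC-rich member at 66.1%, had -0.04. With offsets for GC content and length fitted in every library, Cacng7 (log2 -0.21, adjusted p = 0.0038), Grm4 (-0.28, 0.0456) and Neto1 (0.14, 0.0342) passed, beside 2.19% of all genes, and Cacng2 (0.15, 0.0768) did not.

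**Figure D5:**
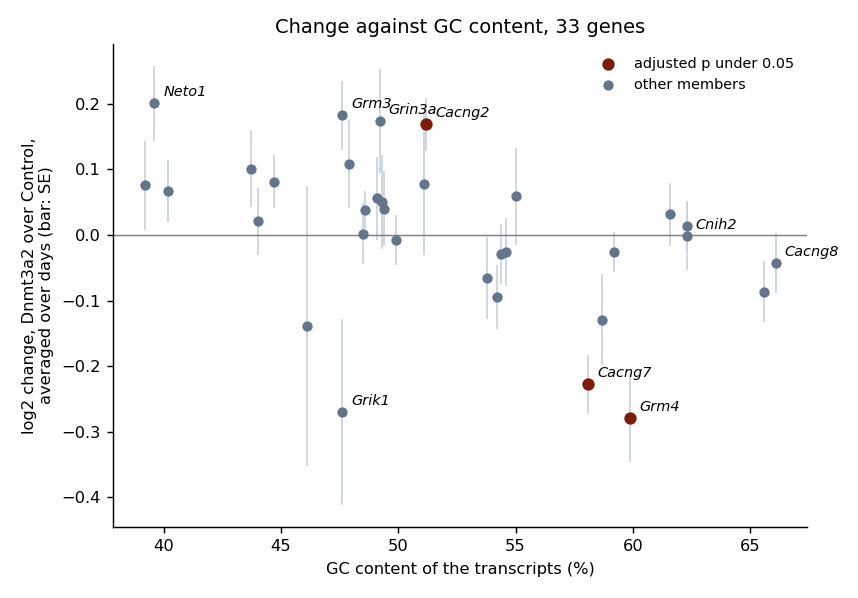
Averaged log2 difference, Dnmt3a2 over Control, with its SE (vertical axis) against the GC content of the transcripts in percent (horizontal axis) for the 33 genes, the 3 called genes in dark red. Genes of low GC content lie mostly above 0 and those of high GC content nearer to or below 0 (Spearman correlation -0.532).

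Other genes of the glutamate synapse were taken from lists of 18 further receptors and auxiliary proteins, 22 trafficking and anchoring genes, 19 transport and metabolism genes and 8 editing and splicing genes. Averaged over days 0 of 16 tested receptor genes passed, 1 of 21 trafficking genes rose, 1 of 18 transport genes rose and 0 of 8 editing and splicing genes passed, with no gene falling. Of all genes, 0.704% were called higher and 0.722% lower in this comparison. None of the listed genes passed at 1 day or at 5 days, where 0.0888% and 0.32% of all genes did. The trafficking gene was Dlg2, which encodes the scaffold PSD-93. Dlg2 had 365 ± 11.3 CPM with Dnmt3a2 and 329.9 ± 10.6 CPM in Control at 1 day, and 364 ± 11.04 CPM with Dnmt3a2 and 337 ± 12.8 CPM in Control at 5 days (SD, n = 4 each), a log2 change of 0.13 (SE 0.0307, adjusted p = 0.041). The transport gene was Slc1a3, the astrocytic glutamate transporter GLAST, also counted among the astrocyte markers. It had 462 ± 46.8 CPM with Dnmt3a2 and 402 ± 26.7 CPM in Control at 1 day, and 461 ± 14.1 CPM with Dnmt3a2 and 409.6 ± 22.9 CPM in Control at 5 days (SD, n = 4 each), a log2 change of 0.19 (SE 0.0452, adjusted p = 0.0426). Median log2 differences of the 4 lists in the averaged comparison were 0.01, 0.03, 0.04 and 0.00, beside 0.01 over all genes. At an unadjusted p under 0.05, 5 of 16, 6 of 21, 3 of 18 and 1 of 8 genes were counted, beside 12.1% of all genes.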

How the data were processed

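RNA of 16 dorsal hippocampus libraries, 500 ng each, was purified with a column kit and sequenced by the BGISEQ-500 protocol, per the labels' protocols. The authors deposited expected (estimated) counts per Ensembl gene, not normalised, made with Trim Galore 0.6.4 and kallisto 0.4.6 on GRCm38.p6, per the submitters' processing notes. They also deposited log2 CPM of 16907 genes, all 33 members among them, and the same notes list edgeR 3.17. How transcripts were summed to genes and how strand was treated are not stated. Of the deposited estimated counts, 26% were not whole.

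Counts were rounded, named by GENCODE M21 (55144 of 55385 identifiers), filtered with filterByExpr by group, scaled with TMM and fitted with edgeR 4.0.16 (R 4.3.3), a robust quasi-likelihood model with a term per group over all 16 libraries. Adjusted p is Benjamini-Hochberg over 16899 genes, with a threshold of 0.05. Levels are CPM after TMM scaling, with no counts added. The 3 ratios were compared with two-sided exact permutation tests. No library pair was a duplicate: over 120 pairs, the smallest chi-square per gene was 4.33 and the largest 42.0. The fit was tested on simulated data.

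The members, gene lists and tests were chosen with earlier results of these data known. Genes given in full are those called in any comparison, the 5 smallest p in each comparison of Dnmt3a2 with Control, the 2 smallest in the others, and the highest level per length of each class. Alternatives were DESeq2 1.42.0 (size factors, Wald test), upper-quartile factors, other low-count filters, no robust estimation, limma-voom (limma 3.58.1), a fit of the compared groups alone, a threshold of 0.10, the replicate block and each library left out. Chosen after seeing the data were fits without the 2 choroid-rich or 3 interferon-rich libraries and with GC and length offsets per library. With totals of 28.6 to 30.0 M, the members' mean counts ran from 95.7 to 33796 per library, and intervals reflect the spread between libraries.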

Additional observations from a re-analysis of the deposited data

Results flagged for a closer look

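Of 144 sets of 4 values, each 1 member or ratio in 1 group, 5 held a library far from the other 3 (gap to the nearest over the range above 0.829, Dixon's 95% critical value). Chance alone marks about 1 set in 20, so these are given as values. Grin2a stood at 258.7 CPM in replicate 3 of Control at 5 days, against 306 to 314 CPM in the other 3. Cacng5, a type II TARP, stood at 17.9 CPM in replicate 4 of Dnmt3a2 at 1 day, against 24.6 to 25.7 CPM. Cacng8 stood at 220.7 CPM in replicate 2 of Dnmt3a2 at 5 days, against 196 to 198 CPM. Cacng2 stood at 108 CPM in replicate 1 of Control at 1 day, against 101 to 102 CPM; this library was interferon-rich and still lay below all Dnmt3a2 libraries of that day. The log2 ratio of Gria1 to Gria2 was 1.07 in replicate 3 of Control at 1 day, against 1.23 to 1.26. No member passed the test of whether its difference between Dnmt3a2 and Control changed between the days. That result does not show that the differences were equal.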

How the results depend on the processing

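For 21 gene results, those called or with the smallest p of their comparison, the log2 change was followed under every alternative, and none turned its sign. Other log2 changes given above were not followed in this way. The counts of members called at 1 day, between days and for the difference between days were 0 under every alternative. At 5 days the count was 1 with an adjusted p of 0.10, upper-quartile factors, no low-count filter, only the groups compared, or DESeq2's Wald test, and 2 without the 2 choroid-rich libraries, without the 3 interferon-rich libraries, with GC and length offsets, or with these offsets and the replicate block. Leaving out 1 library gave 0 to 1 there, and 1 to 4 in the average over days, where an adjusted p of 0.10 and DESeq2's Wald test each gave 5. Over all genes, the alternatives other than the threshold of 0.10 called 0.129% to 0.899% at 5 days and 0.706% to 3.09% in the average. The share of all genes at a threshold of 0.10 was not counted, so the member counts at that threshold have no background beside them. The cause of these shifts was not tested. Leaving out 1 library moved the log2 difference of Grin2a to Grin2b from -0.0148 to 0.0302 at 1 day and from -0.0722 to 0.0358 at 5 days, and that of Gria1 to Gria2 from -0.0488 to 0.0243 at 1 day, so their signs are not fixed; the Cacng8 to Cacng2 difference stayed between -0.336 and -0.213 at 1 day. The replicate block left 3 members called in the average, and 8 of 24 pairs of equal replicate number had a correlation over 0.1 (-0.086 to 0.38) and 6 of 16 libraries correlated best with their own number, so the numbers were not taken as pairs; the choroid-rich and interferon-rich libraries were nevertheless all replicate 1. For the ratios the paired sign-flip test of 4 pairs cannot go below an exact p of 0.125. Grm8 and Grik1, the members with the fewest counts, had an SE at 1 day of 0.302 and 0.202 and a coefficient of variation within groups of 30.4% and 21.9%; the cause of that spread was not tested.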

Other observations

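Among the genes of the 4 glutamate synapse lists that did not pass in the average over days, 6 had an unadjusted p under 0.005, 5 of them higher and 1 lower with Dnmt3a2. The share of all genes under 0.005 was not counted, so this count has no background beside it. These genes were named for these values, and the lists they come from lay on both sides of 0: 13 of 21 trafficking genes were above 0 and 8 below, and 9 of 16 further receptor genes above and 7 below. Of 18 transport genes 12 were above 0 and 6 below, and of 8 editing and splicing genes 4 were above and 4 below. Nptxr and Nptx1, neuronal pentraxin components that cluster AMPA receptors, had log2 differences of 0.17 (adjusted p = 0.0766) and 0.16 (adjusted p = 0.102), Homer1, the scaffold of group I metabotropic receptors, 0.17 (adjusted p = 0.113), and Porcn, an AMPA receptor interactor, 0.15 (adjusted p = 0.111), all by edgeR's quasi-likelihood test. Slc1a2, the astrocytic glutamate transporter GLT-1, had 0.15 (adjusted p = 0.0921) and the splicing regulator Rbfox3 -0.10 (adjusted p = 0.131) by the same test. Nptxr had 1697 ± 81.8 CPM with Dnmt3a2 and 1533 ± 121 CPM in Control at 1 day, and 1791 ± 106 CPM with Dnmt3a2 and 1569 ± 148 CPM in Control at 5 days (SD, n = 4 each).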
